A study of Gossypium hirsutum with 6 samples.

Results

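In leaf RNA of upland cotton (Gossypium hirsutum), 7 genes at 3 places in the genome were present in every transgenic library and close to 0 in every wild-type library, each beside at least 1 other gene of the same kind. They are GH_A07G1555, GH_A07G1556 and GH_A07G1557 on chromosome A07, GH_A13G2237 and GH_A13G2238 on chromosome A13, and GH_D05G3882 and GH_D05G3885 on chromosome D05. They were chosen from these same libraries as genes with at least 2 FPKM in all 3 transgenic libraries, under 0.5 FPKM in all 3 wild-type libraries, and another such gene within 5 identifier positions on the same chromosome. FPKM is the number of fragments of a transcript scaled to its length and to all mapped fragments. Of 72761 genes in the deposited table, 64 met the rule on levels, which is 0.088% of the table, and 7 of those 64 had such a neighbour. Because the levels chose the 7 genes, their levels are described here without a test.

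The study is about FPF1, flowering promoting factor 1, and shade avoidance in cotton, and its design text mentions both constitutive expression of the cotton gene and its mutation by CRISPR. Poly-A selected leaf RNA was sequenced from 3 libraries labelled as transgenic lines, whose titles carry the name FPF1, and from 3 libraries labelled wild type, whose titles carry the name W10, which the labels do not explain. The labels do not say which FPF1 construct or promoter the transgenic lines carry, how many lines were used, or the age of the plants. Whether the 3 libraries of a group came from different plants is not stated either, so every p here reflects the variation among these libraries alone, which could be technical.

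The 7 genes encode several kinds of protein. GH_A07G1555 and GH_A07G1557 share 1 KEGG ortholog but 0 of their GO terms, of which each has 3. GH_D05G3882 and GH_D05G3885 share another ortholog and 3 GO terms, of 5 and 4. GH_A07G1556 and GH_A13G2238 have no described function. Short-chain dehydrogenases and reductases, the kind of GH_A07G1555 and GH_A07G1557, are NAD(P)H-dependent enzymes that reduce or oxidise small metabolites, among them terpenoids and alkaloids. VPS32, the kind of GH_A13G2237, is the main polymer-forming subunit of ESCRT-III, a complex that sorts membrane proteins into vesicles bound for the vacuole. GH_D05G3882 and GH_D05G3885 are assigned by KEGG ortholog to intracellular immune receptors with a nucleotide-binding domain and leucine-rich repeats. In plants such receptors detect pathogen effectors and are often encoded in clusters. Upland cotton carries an A and a D subgenome, so most genes have a counterpart, or homeolog, on the other subgenome, and the comparison with that counterpart is made below.

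The 6 libraries were alike in size. Their FPKM summed to between 909815 and 933686, and each had between 52037 and 53560 genes above 0. The gene described as flowering-promoting factor 1, GH_D02G0524, had 133, 199 and 195 FPKM in the transgenic libraries, against 0, 0 and 0.467 FPKM in wild type. Limma tested the 43837 genes that averaged 1 FPKM or more in either group and called 5.7% different at an adjusted p under 0.05 (3.92% higher and 1.78% lower). That count, 2500 genes, dropped to 289 without transgenic replicate 2, to 803 without transgenic replicate 3 and to 420 without wild type replicate 1. Leaf marker genes, for the RuBisCO small subunit, its activase and the chlorophyll-binding proteins, were lower in 23 and higher in 3 of 53 tested, and summed to between 2585 and 3282 FPKM in the transgenic libraries, against 4042 to 5569 FPKM in wild type. Markers of the xylem secondary wall were higher in 20 and lower in 0 of 47 tested by limma, with 30 higher and 0 lower at an unadjusted p under 0.05. They summed to between 242 and 325 FPKM in the transgenic libraries, against 158 to 175 FPKM in wild type. Limma called floral organ markers higher in 0 and lower in 4 of 23, seed markers in 0 and 1 of 30. Markers of dividing cells were called in 0 of 7. At an unadjusted p under 0.05, floral markers were higher in 1 and lower in 7, seed markers in 0 and 12, and those of dividing cells in 0 and 2. At an unadjusted limma p under 0.05, 7264 of the 43830 tested genes outside the 7 were higher and 3253 lower. The higher xylem count was 21 with limma fitted without its trend and robust options. It was 4 without transgenic replicate 2, 10 without transgenic replicate 3 and 7 without wild type replicate 1. The lower leaf count was 11, 12 and 12 without those same libraries. In bulk leaf RNA, fewer cells of a type and less RNA per cell cannot be told apart, and the part of these marker differences in the levels of the 7 genes was not tested.

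On chromosome A07, 3 consecutive identifiers were on in the transgenic libraries. GH_A07G1555, described as (+)-neomenthol dehydrogenase-like and assigned to the KEGG ortholog K15095 in monoterpenoid biosynthesis, had 242, 215 and 129 FPKM in the transgenic libraries, against 0, 0.106 and 0.186 FPKM in wild type. In mint, neomenthol dehydrogenase interconverts menthone and neomenthol. The transgenic mean, 195 ± 59.0 FPKM (SD, n = 3), was the highest of the 64 genes that met the rule on levels and lay above that of 99.1% of all tested genes, while the wild-type mean was 0.0972 ± 0.0933 FPKM (SD, n = 3).

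GH_A07G1556, an uncharacterised protein that the table pairs with the RefSeq name LOC107955819, had 119, 140 and 89.2 FPKM in the transgenic libraries, against 0, 0.163 and 0.268 FPKM in wild type. Its transgenic mean of 116 ± 25.4 FPKM (SD, n = 3) was rank 3 of the 64. In the RefSeq assembly Gossypium_hirsutum_v2.1, LOC107955819 lies within the span of 1 other protein-coding gene, LOC107952927. Reads of overlapping genes could be counted for either, and the level of GH_A07G1556 is uncertain to that extent. LOC107952926 and LOC107952927 lie between LOC107952924 and LOC107955819, where the identifiers place GH_A07G1554 and GH_A07G1555. The overlapping gene could thus be GH_A07G1555, although the RefSeq name of that gene is not given. The level of GH_A07G1555, its ratio to GH_A07G1556 and their shared lowest library would then be uncertain too. That assembly also places LOC107955819 between LOC107952924 and LOC107952934, the names the table gives to GH_A07G1553 and GH_A07G1559, so the order of identifiers followed the order of these genes.

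GH_A07G1557, described as salutaridine reductase-like and also assigned to K15095, had 29.03, 19.03 and 18.6 FPKM in the transgenic libraries and was listed at 0 in all 3 wild-type libraries. In opium poppy, salutaridine reductase acts in the synthesis of morphine, and nothing in these files shows which compound the cotton protein acts on. All 3 genes were lowest in transgenic replicate 3. They did not keep one ratio across libraries: GH_A07G1555 was 2.03, 1.54 and 1.45 times GH_A07G1556 in transgenic replicates 1 to 3, and GH_A07G1557 was 0.120, 0.0886 and 0.144 times GH_A07G1555.

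On chromosome A13 the pair GH_A13G2237 and GH_A13G2238 was on. GH_A13G2237, described as VPS32 homolog 2-like and assigned to K12194, had 13.4, 21.6 and 19.4 FPKM in the transgenic libraries, a mean of 18.1 ± 4.25 FPKM (SD, n = 3), and was listed at 0 in every wild-type library. GH_A13G2238 has no described function of its own, and its GO terms in the table name a DNA-binding transcription factor, metal ion binding and a response to oxidative stress. It had 26.5, 45.7 and 30.5 FPKM in the transgenic libraries, against 0, 0.0513 and 0 FPKM in wild type. Both genes were lowest in transgenic replicate 1 and highest in transgenic replicate 2, and GH_A13G2238 was 1.99, 2.12 and 1.58 times GH_A13G2237 in transgenic replicates 1 to 3.

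On chromosome D05 both genes carry the KEGG ortholog K13459, which is named for RPS2, an Arabidopsis immune receptor. GH_D05G3882, described as disease resistance protein At4g27190-like, had 10.9, 7.96 and 10.7 FPKM in the transgenic libraries and was listed at 0 in every wild-type library. GH_D05G3885, a hypothetical protein, had 8.42, 7.31 and 8.02 FPKM in the transgenic libraries and was likewise listed at 0 in every wild-type library. The transgenic means were 9.87 ± 1.66 and 7.92 ± 0.566 FPKM (SD, n = 3 each), the lowest of the 7 genes but above those of 56.6% and 49.2% of tested genes. GH_D05G3882 was 1.30, 1.09 and 1.34 times GH_D05G3885 in transgenic replicates 1 to 3, and both were lowest in transgenic replicate 2.

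**Figure D1:**
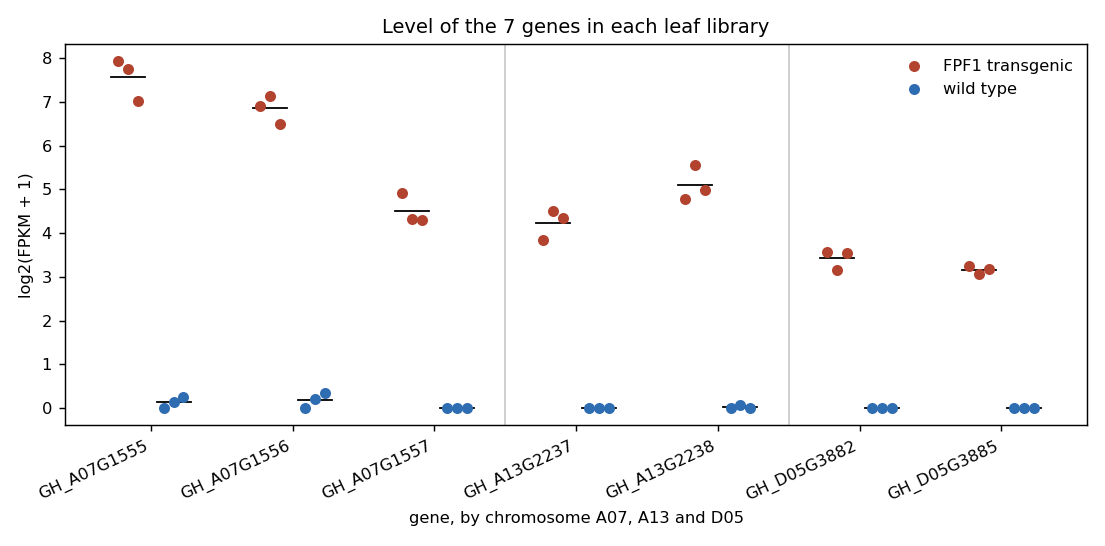
The level of each of the 7 genes as log2(FPKM + 1) in each library, with the FPF1 transgenic libraries (red) to the left of wild type (blue), replicates 1 to 3 from left to right within a group, and the group mean as a bar. The transgenic points of GH_A07G1555 stand highest, at 129 to 242 FPKM, those of GH_D05G3885 lowest, at 7.31 to 8.42 FPKM, and no wild-type point exceeds 0.268 FPKM.

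In order of transgenic mean, GH_A07G1555 and GH_A07G1556 came first, then GH_A13G2238, GH_A07G1557, GH_A13G2237, GH_D05G3882 and GH_D05G3885. The libraries of GH_A07G1555 and GH_A07G1556 overlapped (129 to 242 and 89.2 to 140 FPKM), as did those of GH_A13G2238 and GH_A07G1557, of GH_A07G1557 and GH_A13G2237, and of GH_D05G3882 and GH_D05G3885. The libraries of GH_A07G1556 and GH_A13G2238, and of GH_A13G2237 and GH_D05G3882, did not overlap. The coefficient of variation between transgenic libraries ran from 7.15% for GH_D05G3885 to 30.2% for GH_A07G1555, with a median of 23.5%, beside a median of 32.2% for the 57 other genes that met the rule on levels and 13.9% for all tested genes.

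At each of the 3 loci the genes shared the transgenic library in which they were lowest, and that library differed between loci. The A13 pair and the D05 pair also shared their highest library, whereas GH_A07G1556 was highest in transgenic replicate 2 and the other A07 genes in replicate 1. Of 19344 pairs of adjacent other genes with at least 2 FPKM in every transgenic library, 36.1% shared their lowest library and 34.9% their highest. Those pairs had consecutive identifiers, whereas A07 holds 3 genes and the D05 genes lie farther apart. The shares are therefore not a matched rate for the 3 loci. The 57 other genes that met the rule on levels were lowest in transgenic replicate 1 in 36 cases, in replicate 2 in 13 and in replicate 3 in 8.

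The lowest transgenic value among the 7 genes was 7.31 FPKM, for GH_D05G3885 in replicate 2, and the highest wild-type value 0.268 FPKM, for GH_A07G1556 in replicate 3. With a wild-type limit of 0.1 FPKM in place of 0.5, GH_A07G1555 and GH_A07G1556 no longer met the rule on levels, and GH_A07G1557 was left without a neighbour. Just inside the rule were other genes without a neighbour, GH_A07G1421 (a pleiotropic drug resistance transporter), GH_A01G0508 and GH_D10G0384 (a cellulose synthase of the secondary wall), with lowest transgenic values of 2.09, 2.09 and 2.12 FPKM. Just outside it were GH_A02G1899 and GH_D08G2141, with lowest transgenic values of 1.94 and 1.93 FPKM, and GH_A09G1255 and GH_D10G2589, with highest wild-type values of 0.506 and 0.508 FPKM. Without transgenic replicate 3, GH_A02G1899 met the rule together with a neighbour, GH_A02G1900, so the number of places depends on the limit of 2 FPKM. In all, 91 genes missed the rule in 1 library only, and 0 of the 62 other genes within 10 identifiers of the 7 did. With the groups exchanged, 15 genes met the rule on levels, 0.0206% of the table, and 0 of them had such a neighbour. Of the 7 genes 4 were listed at 0 in every wild-type library, beside 14 of all 64.

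The genes around the 7 were measured in the same libraries that chose the loci, and any neighbour that met the rule would itself be among the 7, so the counts around them describe these loci and are not independent of the choice. Within 10 identifiers there were 62 other genes, of which 12 were listed at 0 in every library and 41 were expressed highly enough to test. Limma called 6 of the 41 different (14.6%, beside 5.7% of all tested genes), of which 5 rose and 1 fell, and 5 of the 6 lay on chromosome D05. The count was 1 (higher) without transgenic replicate 2 or without wild type replicate 1, 2 (both higher) without transgenic replicate 1, and 2 (1 higher and 1 lower) without transgenic replicate 3. Lower calls outnumbered higher ones without wild type replicate 2 (1 higher and 2 lower) and without wild type replicate 3 (1 higher and 3 lower). With the filter set on the mean over all 6 libraries, limma called 4 of 37, 3 higher and 1 lower. Over all genes that filter gave 2417 calls of 42533. Between 11 and 30 identifiers away, limma called 3 of 68 tested genes (4.41%), with 1 of them higher and the other 2 lower.

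Around the A07 genes limma called 0 of the 5 tested neighbours within 3 positions, with or without its trend and robust options, and 1 had an unadjusted p under 0.05. Before the members in the order, GH_A07G1554, a hypothetical protein of the same ortholog K15095, had only 0.160, 0.417 and 0 FPKM in the transgenic libraries and was listed at 0 in wild type. GH_A07G1552, described like GH_A07G1555 as a (+)-neomenthol dehydrogenase, had 18.1, 10.3 and 8.71 FPKM in the transgenic libraries, against 33.6, 72.3 and 21.1 FPKM in wild type. All 3 transgenic libraries lay below all 3 wild-type libraries, a log2 difference of -1.58 ± 0.441 (SE) that missed the threshold (limma adjusted p = 0.0843) and passed it only without wild type replicate 3. GH_A07G1553 differed by -0.34 on the log2 scale (limma adjusted p = 0.447).

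After the A07 genes, the mitochondrial malic enzyme GH_A07G1558 had 15.0, 15.4 and 16.2 FPKM in the transgenic libraries, against 15.6, 18.7 and 12.7 FPKM in wild type, and the groups overlapped. GH_A07G1559 and GH_A07G1560 differed by 0.05 and 0.16 on the log2 scale (limma adjusted p = 0.875 and 0.450), and the sign for GH_A07G1559 turned under either other scaling. Within 10 positions limma called 1 of 15 tested genes, GH_A07G1561, a homeodomain protein named ANTHOCYANINLESS 2, with a log2 difference of 0.45 ± 0.0954 (SE, limma adjusted p = 0.0421). That call was lost without any 1 of the 6 libraries (limma adjusted p of 0.0722 to 0.157) and under either other scaling.

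Around the A13 pair limma called 0 of 13 tested genes within 10 positions, with 2 higher and 0 lower at an unadjusted p under 0.05. Limma without its trend and robust options also called 0. Without wild type replicate 2 the main limma fit called 1 gene lower, the hypothetical protein GH_A13G2230 (log2 difference -1.66, limma adjusted p = 0.0232), which over all 6 libraries differed by -1.08 (limma adjusted p = 0.234). The neighbours on either side were expressed in both groups. GH_A13G2236, encoding ribosomal protein L31, had 69.4, 73.4 and 70.5 FPKM in the transgenic libraries, against 61.7, 65.4 and 58.6 FPKM in wild type (log2 difference 0.20, limma adjusted p = 0.243). GH_A13G2239, the sigma subunit of the adaptor complex AP-4, had 8.94, 9.82 and 9.13 FPKM in the transgenic libraries, against 10.004, 10.4 and 6.53 FPKM in wild type (log2 difference 0.07, limma adjusted p = 0.850). GH_A13G2234 and GH_A13G2241 differed by 0.26 and 0.15 on the log2 scale, with limma adjusted p of 0.556 and 0.512. GH_A13G2235 reached 0.158 FPKM in 1 library and GH_A13G2240 was listed at 0 in all 6.

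Among the 13 tested genes within 10 positions of the D05 genes, limma called 4 higher and 1 lower. With the filter set on the mean over all 6 libraries, it called 2 higher and 1 lower of 10. GH_D05G3881, directly before GH_D05G3882 and annotated with RNA binding and splicing, had 11.4, 13.1 and 12.99 FPKM in the transgenic libraries, against 3.45, 2.68 and 4.19 FPKM in wild type. Its log2 difference of 1.61 ± 0.156 (SE) was called (limma adjusted p = 0.00474) and remained called without each library in turn, where the adjusted p was at most 0.0393. Between the 2 members, GH_D05G3883 was listed at 0 in every library, and GH_D05G3884, annotated with kinase activity, had 0.521, 0.997 and 0.558 FPKM in the transgenic libraries, against 0.128, 0.232 and 0.115 FPKM in wild type, too low to be tested. GH_D05G3879 and GH_D05G3880, farther before the pair, differed by -0.29 and 0.04 on the log2 scale (limma adjusted p = 0.556 and 0.919).

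After the pair stood further receptor genes of K13459. GH_D05G3886, described as At4g27220-like, had 4.75, 3.83 and 5.40 FPKM in the transgenic libraries, against 2.41, 1.86 and 1.81 FPKM in wild type (log2 difference 0.90 ± 0.171 SE, limma adjusted p = 0.0313). The groups did not overlap, but the call was lost without any 1 library (limma adjusted p up to 0.102). GH_D05G3887 had 7.62, 7.44 and 9.66 FPKM in the transgenic libraries, against 5.999, 5.77 and 6.38 FPKM in wild type, and was not called (log2 difference 0.38, limma adjusted p = 0.138).

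Beyond the receptor genes came lipase-like esterases of the ortholog K21026 at low levels. Those named here averaged 1 FPKM or more only in the transgenic group. A higher transgenic level was thus a condition of their being tested. GH_D05G3888 had 0.674, 1.32 and 1.24 FPKM in the transgenic libraries and was listed at 0 in wild type (limma adjusted p = 0.0423, up to 0.142 and lost without any 1 wild-type library). Chosen after their values were seen, GH_D05G3889 had 1.41, 1.02 and 1.24 FPKM in the transgenic libraries, against 0.228, 0.0439 and 0 FPKM in wild type (limma adjusted p = 0.0354, lost without any 1 library, up to 0.108), and GH_D05G3891 had 1.01, 0.585 and 1.54 FPKM in the transgenic libraries and was listed at 0 in wild type (limma adjusted p = 0.0567). The 1 lower call, GH_D05G3873, had 0.138, 0 and 1.63 FPKM in the transgenic libraries, against 5.88, 6.82 and 4.32 FPKM in wild type (log2 difference -2.19 ± 0.375 SE, limma adjusted p = 0.0230, lost without transgenic replicate 1 or 2 or wild type replicate 1, up to 0.0971).

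**Figure D2:**
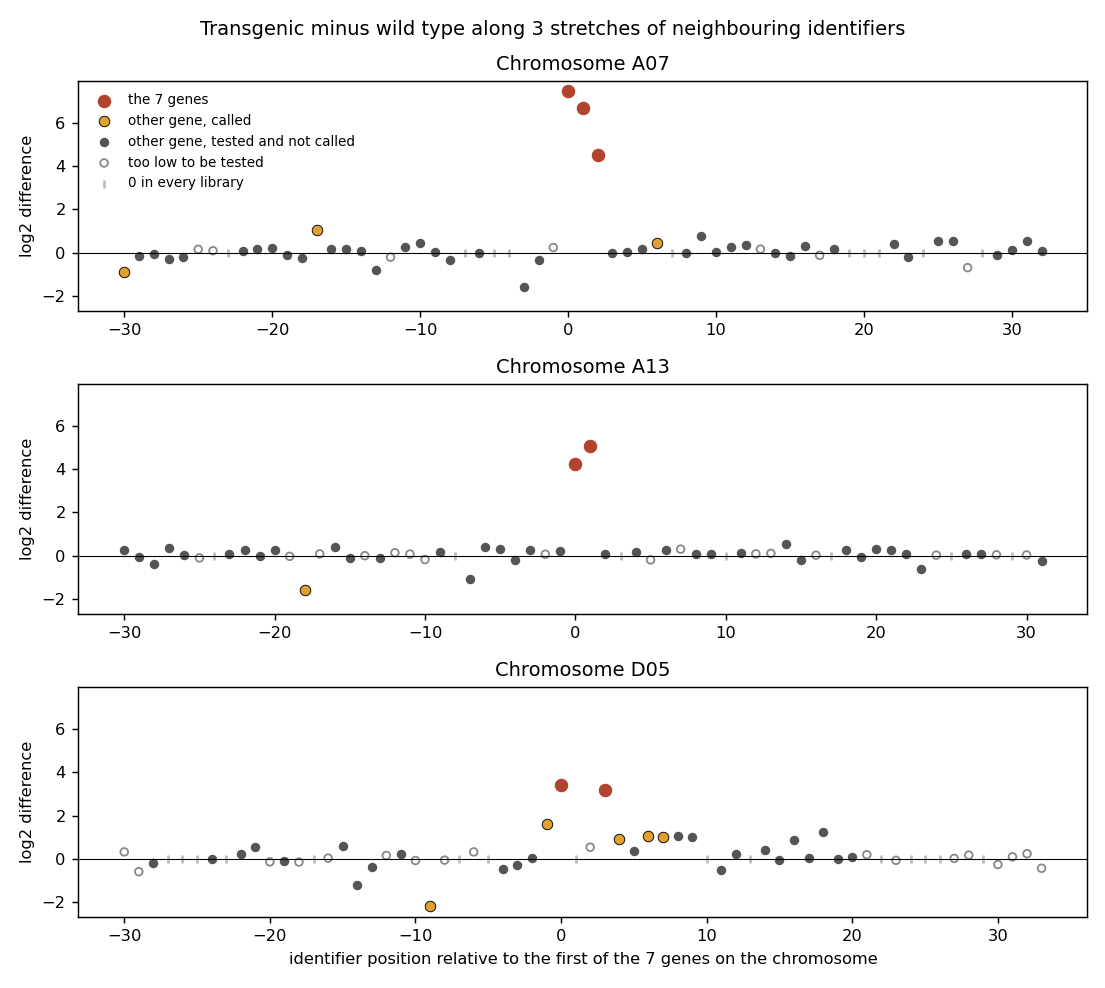
The difference between mean log2(FPKM + 1) of the transgenic and of the wild-type libraries for each gene, in order of identifier, within 30 positions of the members on A07, A13 and D05. The 7 genes (red) stand above 3 in all 3 panels, other genes within 10 positions run from -2.19 to 1.61, and of the called genes within 10 positions (orange) 5 are on D05, 1 on A07 and 0 on A13.

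The counterpart stretches on the other subgenome were sought as the 21 consecutive identifiers that shared the most protein descriptions with the neighbourhood of the members. For A13 that was D13, with 14 descriptions shared, against at most 5 on any other chromosome of that subgenome. For A07 it was D07, with 10 shared against 5. For D05 it was A04, with only 3 shared against 2, so that match is weak and no single counterpart of either D05 gene is named.

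On A13 and D13 the order was the same around the pair: ribosomal protein L31, VPS32, a second gene, and the AP-4 sigma subunit. The D13 copy of VPS32, GH_D13G2220, was expressed in both groups, with 24.2, 23.2 and 20.1 FPKM in the transgenic libraries, against 24.1, 28.4 and 32.1 FPKM in wild type, and the groups overlapped (log2 difference -0.31 ± 0.133 SE, limma adjusted p = 0.212). GH_A13G2237 and GH_D13G2220 carry the same 7 GO terms. The sum of the pair was 37.6, 44.8 and 39.5 FPKM in the transgenic libraries, against 24.1, 28.4 and 32.1 FPKM in wild type. GH_A13G2237 made up 35.6%, 48.1% and 49.1% of that sum in the transgenic libraries and 0% in wild type. It was chosen by these levels, so a wild-type share near 0% and part of the higher sum follow from the choice.

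The gene at the next position on D13, GH_D13G2221, is described as zinc finger CCCH domain-containing protein 20, a class of RNA- or DNA-binding proteins, and carries the same 8 GO terms as GH_A13G2238. It had 39.2, 46.8 and 50.1 FPKM in the transgenic libraries, against 27.6, 23.8 and 31.6 FPKM in wild type, with no overlap. Its log2 difference of 0.70 ± 0.141 (SE) was called (limma adjusted p = 0.0366), but not under either other scaling, nor without transgenic replicate 2 or 3 or wild type replicate 1 or 2 (limma adjusted p up to 0.146). GH_A13G2238 and GH_D13G2221 summed to 65.7, 92.6 and 80.6 FPKM in the transgenic libraries, against 27.6, 23.8 and 31.6 FPKM in wild type, and GH_A13G2238 made up 40.4%, 49.4% and 37.9% of the sum in the transgenic libraries. GH_A13G2238 was also chosen by these levels, so part of the higher transgenic sum follows from the choice. How reads that match both copies were assigned is not given in the sources used here. The division between copies is therefore less certain than the sum.

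On D07 the corresponding stretch holds GH_D07G1560 and GH_D07G1561, both described as (+)-neomenthol dehydrogenase, then GH_D07G1562, described as salutaridine reductase, and then the same malic enzyme. None of the 3 was off in wild type and on in the transgenic libraries. GH_D07G1560 had 54.3, 39.4 and 39.7 FPKM in the transgenic libraries, against 97.6, 182 and 40.7 FPKM in wild type (log2 difference -1.02 ± 0.479 SE, limma adjusted p = 0.247). The transgenic value of replicate 1 lay above the lowest wild-type library, so the groups overlapped, and the difference passed the threshold only without wild type replicate 3. GH_D07G1561 stayed at or under 0.470 FPKM and GH_D07G1562 at or under 1.61 FPKM in every library.

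The reductases described as neomenthol dehydrogenase or salutaridine reductase on A07 (GH_A07G1552, GH_A07G1555 and GH_A07G1557) summed to 289, 244 and 156 FPKM in the transgenic libraries, against 33.6, 72.4 and 21.3 FPKM in wild type. Those on D07 summed to 55.3, 39.4 and 41.8 FPKM in the transgenic libraries, against 98.4, 183 and 41.4 FPKM in wild type. The A07 stretch therefore held most of this expression in the transgenic libraries and less than the D07 stretch in each wild-type library. GH_A07G1555 and GH_A07G1557 were chosen by these levels, so the higher A07 sum follows from the choice. GH_A07G1552, not so chosen, averaged 12.4 FPKM in the transgenic libraries and 42.4 FPKM in wild type. How reads that match more than 1 of these similarly described genes were assigned is not given here either.

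**Figure D3:**
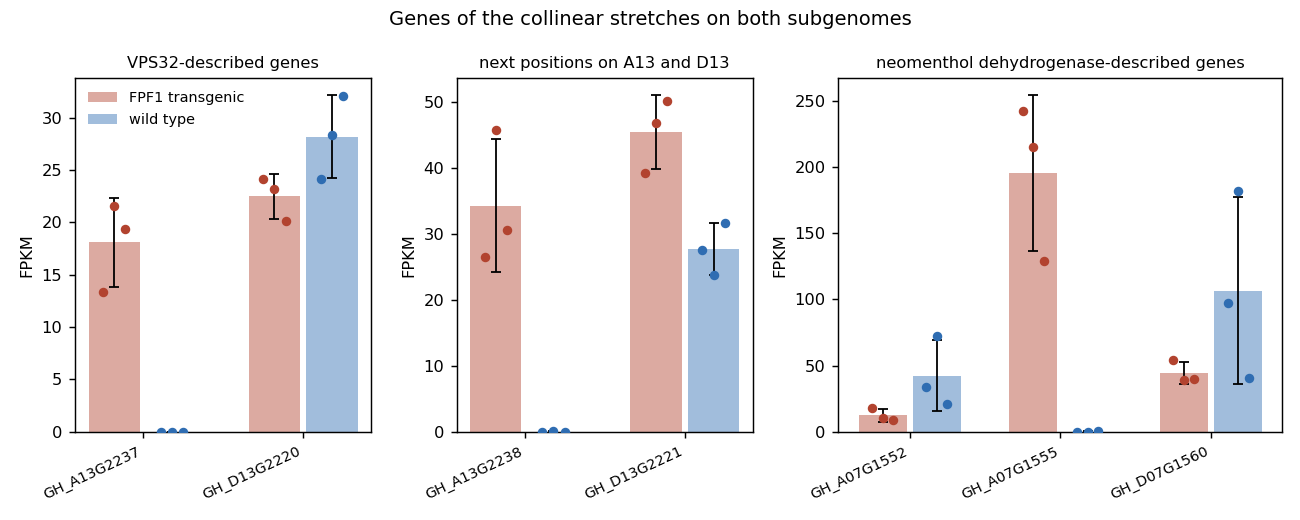
FPKM of the VPS32 genes of A13 and D13, of the genes next to them, and of the neomenthol dehydrogenase-described genes of A07 and D07, with transgenic (red) left of wild type (blue). Bars are means, error bars SD and points the 3 libraries. GH_A13G2237, GH_A13G2238 and GH_A07G1555 are at or near 0 in wild type, while GH_D13G2220, GH_D13G2221, GH_A07G1552 and GH_D07G1560 are expressed in both groups.

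The wider families of the 7 genes were listed by description. Together with the counterparts, limma called 9 of the 168 other genes tested, 5 higher and 4 lower, beside 5.7% of all tested genes. Among short-chain dehydrogenases and reductases, limma called 7 of the 61 other genes tested (11.5%, beside 5.7% of all tested genes), 4 higher and 3 lower, and 0 of them without transgenic replicate 2, transgenic replicate 3 or wild type replicate 1. Of the higher and of the lower calls, the ones with the lowest adjusted p were a tropinone reductase homolog, GH_A05G0935 (log2 difference 1.37, limma adjusted p = 0.0168), and a TIC 32 chloroplast import protein, GH_A09G0509 (log2 difference -0.77, limma adjusted p = 0.0299), and both calls were lost without any 1 of those 3 libraries, the second also without wild type replicate 2 (up to 0.0793 and 0.125). The family's most highly expressed genes besides GH_D07G1560, namely the TIC 32 genes GH_D03G1694 and GH_A03G0276, were not called (log2 differences 0.25 and 0.22, limma adjusted p = 0.211 and 0.224). Of the 14 other genes described as (+)-neomenthol dehydrogenase, 11 were tested and 1 was called (9.09%, beside 5.7%), GH_D10G2263. It had 7.14, 11.997 and 16.03 FPKM in the transgenic libraries, against 4.23, 3.71 and 2.89 FPKM in wild type (limma adjusted p = 0.0318). This call was lost without transgenic replicate 2 or 3 or wild type replicate 1 or 3 (up to 0.133). GH_A10G2162 of the same description differed by -0.34 on the log2 scale (limma adjusted p = 0.577).

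All 38 genes of the ortholog K15095, a list added after the values were seen, summed to 464, 403 and 324 FPKM in the transgenic libraries, against 232, 373 and 156 FPKM in wild type. Without GH_A07G1555 and GH_A07G1557 the sums were 193, 169 and 177 FPKM in the transgenic libraries, against 232, 373 and 156 FPKM in wild type, and the groups overlapped. GH_A07G1556 shares its description with GH_A05G3904, which had 39.5, 46.6 and 39.8 FPKM in the transgenic libraries, against 31.0, 21.5 and 30.7 FPKM in wild type (log2 difference 0.59, limma adjusted p = 0.0757), and with GH_A02G1683 (log2 difference 0.30, limma adjusted p = 0.400).

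Among ESCRT and vacuolar sorting genes, limma called 0 higher and 1 lower of the 93 others tested (1.08%), with 6 higher and 5 lower at an unadjusted p under 0.05, and limma without its trend gave the same 0 and 1. The lower gene was GH_D12G1855, a VPS29 of the retromer complex (log2 difference -0.74, limma adjusted p = 0.0299, up to 0.121 and lost without any 1 transgenic library or wild type replicate 1 or 2). The most highly expressed genes of the list, the CHMP1 genes GH_A10G0627, GH_D10G0668 and GH_A05G1349, differed by 0.02, 0.06 and -0.01 on the log2 scale, with signs that turned under either other scaling for GH_A10G0627 and GH_D10G0668 and without transgenic replicate 3 or wild type replicate 1 for GH_A05G1349. Of the 8 other genes described as VPS32, limma called 0 with or without its trend and robust options, and 0 had an unadjusted p under 0.05. The 3 most highly expressed, GH_A06G0754, GH_D06G0731 and GH_D07G0111, differed by 0.08, -0.05 and -0.29 on the log2 scale (limma adjusted p = 0.665, 0.799 and 0.288), and the first of these turned negative under median-of-ratios scaling. All 10 genes of the ortholog K12194 summed to 198, 206.5 and 213 FPKM in the transgenic libraries, against 189, 220 and 186 FPKM in wild type, so the total of this subunit overlapped between the groups.

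Genes assigned to the receptor ortholog K13459 were called higher elsewhere in the genome too. Of 352 other genes of the ortholog K13459, a list added after the values were seen, 112 were listed at 0 in every library and 121 were tested. Limma called 11 higher (9.09% called, beside 3.92% higher over all genes) and 0 lower, with 19 higher and 3 lower at an unadjusted p under 0.05. Limma without its trend and robust options called 10 higher and 0 lower, and the count was 5 without transgenic replicate 2 or wild type replicate 1 and 6 without transgenic replicate 3. GH_D05G3886 is 1 of the 11. At the top of those not chosen by the rule on levels was GH_A05G3091, described as At1g12290-like and named after its values were seen, with 13.7, 19.3 and 20.1 FPKM in the transgenic libraries, against 1.64, 0.758 and 1.43 FPKM in wild type (log2 difference 3.04 ± 0.211 SE, limma adjusted p = 0.00147, at most 0.0175 without each library in turn). Not every gene of the ortholog is described as a receptor, and several of the 11, such as GH_D10G2777, are described only as hypothetical or uncharacterised proteins. GH_D05G2806, also among the 11, is described as a transcription factor. It had 150, 146 and 127 FPKM in the transgenic libraries, against 103, 104 and 95.2 FPKM in wild type (limma adjusted p = 0.0457, up to 0.166 and lost under either other scaling).

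The rule on levels was met by 4 genes of K13459, namely GH_D05G3882, GH_D05G3885, GH_D05G3766 and GH_D10G2777, and by 2 genes of K15095, both on A07. GH_D10G2777 had 3.05, 2.63 and 3.53 FPKM in the transgenic libraries, against 0.267, 0.157 and 0.270 FPKM in wild type. Of 49 other genes described like GH_D05G3882 as At4g27190, 23 were listed at 0 in every library. Limma called 1 of 12 tested (8.33%, beside 5.7% of all tested genes). That gene, GH_A04G0402, had 5.997, 4.72 and 5.73 FPKM in the transgenic libraries, against 1.82, 1.78 and 1.99 FPKM in wild type (log2 difference 1.17 ± 0.148 SE, limma adjusted p = 0.00980, and 0.0515 without wild type replicate 1). GH_A04G0349 differed by -0.31 (limma adjusted p = 0.637), and the other genes of that description on A04 stayed at or under 0.305 FPKM. The most highly expressed besides GH_D05G3882 and GH_A04G0402, namely GH_D09G2239, GH_D05G3553 and GH_D05G4096, differed by 0.38, 0.07 and 0.04 on the log2 scale (limma adjusted p = 0.235, 0.802 and 0.922), and median-of-ratios scaling turned the sign of the last 2.

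**Figure D4:**
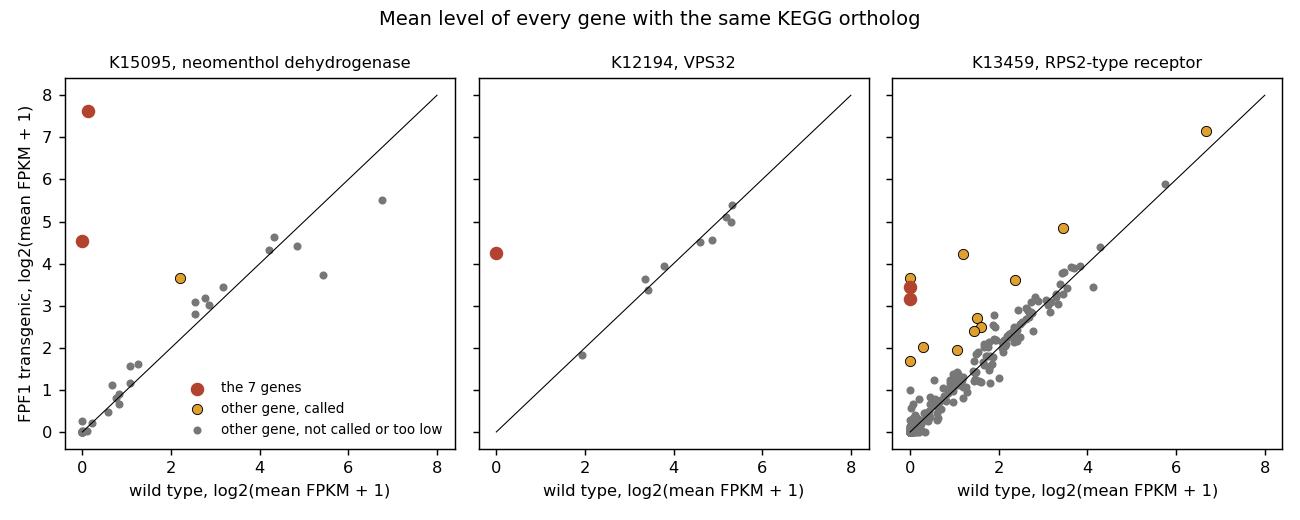
Mean level of every gene of the KEGG orthologs K15095, K12194 and K13459, as log2(mean FPKM + 1), with the transgenic libraries on the vertical axis, wild type on the horizontal axis and the line of equality drawn. The members (red) stand on the left edge in each panel, away from the line along which most other genes lie, and 11 other K13459 genes called by limma (orange) lie above the line.

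For the most highly expressed gene of each locus, the genes outside the 7 with the most similar levels over all 6 libraries were sought by the root mean square difference of log2(FPKM + 1). Both groups enter this difference, so a small value mainly reflects similar group levels, which also chose the 7 genes. For GH_A07G1555 the closest was GH_D02G0524, the flowering-promoting factor 1 gene (0.451). Next came GH_A10G2417, a KIN17 nucleic acid-binding protein (1.80), and GH_D01G0655, a SecA translocase subunit (1.86). Among the 7 the value was 0.533 for GH_A07G1556 and 1.78 for GH_A13G2238. Across transgenic replicates 1 to 3, GH_A07G1555 had 242, 215 and 129 FPKM and was lowest in replicate 3. GH_D02G0524 had 133, 199 and 195 FPKM and was lowest in replicate 1. For GH_A13G2238 the closest outside the 7 were GH_A13G0727, an uncharacterised gene on the same chromosome (0.184), GH_A13G1414, a carboxymethylenebutenolidase homolog also on A13 (0.372), and GH_D02G1743 (0.711), beside 0.576 for GH_A07G1557 and 0.630 for GH_A13G2237. GH_A13G0727 had 25.5, 37.2 and 23.99 FPKM in the transgenic libraries, against 0, 0.0892 and 0.00681 FPKM in wild type. For GH_D05G3882 they were GH_D05G3766 (0.159), the GDSL esterase GH_A03G1544 (0.281) and the 4-coumarate-CoA ligase-like GH_D09G2598 (0.287), beside 0.212 for GH_D05G3885. GH_D05G3766, another K13459 gene on D05, had 13.5, 9.59 and 11.8 FPKM in the transgenic libraries, was listed at 0 in all 3 wild-type libraries, and lay too far from the pair to count as its neighbour.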

How the data were processed

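Leaf RNA of 3 transgenic and 3 wild-type libraries was compared. The authors deposited 1 table with FPKM per gene and library, in which 1e-04 stands for no expression and was read as 0. Per the file headers it also holds a ratio of group means (fold change), its log2, and a p-value and q-value, none of which was used for a result. Poly-A selection and NEBNext kits are per the labels' protocols. Which aligner, counter, genome build and strand setting the authors used is not given in the sources used here. The values are not counts, so depth and counting error are unknown. Descriptions, GO terms and KEGG orthologs come from the deposited table, and gene order was read from identifiers.

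The test was two-sided limma (version 3.58.1, R 4.3.3), robust and with an intensity trend, fitted without covariates to log2(FPKM + 1) of the 43837 genes that averaged 1 FPKM or more in either group. Benjamini-Hochberg adjustment covered all of them. Genes were called at an adjusted p under 0.05. The pseudocount makes fold changes of low genes too small. On simulated data with 42259 genes, 84% of 200 genes changed by 2 on the log2 scale were recovered. Alternatives were another pseudocount, other filters, median-of-ratios and upper quartile scaling, a replicate block, plain limma (without the trend and robust options), other level thresholds, and leaving out each library. The members and all lists were chosen with earlier results of these data known. The genes named are the 7, those within 3 identifiers, their same-description counterparts, the top genes of their families, genes at the edge of the rule, and those most alike in level. Genes that gained a neighbour under another limit or without a library are named too. Other named genes are said to be chosen after their values were seen, or are GH_A07G1561, GH_A13G2230, GH_D05G3873, GH_D10G2777, GH_D13G2221, GH_D05G2806 and the FPF1 gene. No sequences are printed.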

Additional observations from a re-analysis of the deposited data

How the results depend on the processing

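The 7 genes met the rule under both other scalings. Asking for at least 1 FPKM in the transgenic libraries gave 160 genes, of which 14 had a neighbour. Besides the 7 these were GH_A02G1899 and GH_A02G1900, GH_A13G0234 and GH_A13G0235, GH_D02G2059 and GH_D02G2060, and GH_D05G3889. At least 5 FPKM gave 21, with the same 7. Asking for under 0.1 FPKM in wild type gave 22, of which 4 had a neighbour, and kept 5 of the 7 genes, 4 of them with a neighbour. Without single libraries the rule on levels gave 68 to 115 genes, and 7 to 9 with a neighbour. GH_A13G0234 and GH_A13G0235 joined without transgenic replicate 2, and GH_A02G1899 and GH_A02G1900 without transgenic replicate 3. Leaving out a library can only add genes to this rule. Over all genes limma called 289 to 2552 without single libraries, and the higher share of calls was 68.8% as deposited, 53.8% after median-of-ratios and 57.3% after upper quartile scaling, with a median log2 difference over all genes of 0.08, -0.00 and 0.02. Calls within 10 identifiers numbered 1 to 4 without single libraries, and those in families and counterparts 0 to 10, beside 9 of 168; without a filter the count in families was 5. Whether replicate numbers pair the samples could not be settled from 3 libraries per group. Same-numbered libraries deviated with correlations of 0.0136, 0.0261 and 0.0740. Transgenic replicates 2 and 3 correlated best with their own number, and transgenic replicate 1 with wild type replicate 2 (0.0582). With the replicate block the calls numbered 1532 over all genes, 2 within 10 identifiers (1 higher and 1 lower) and 4 in families and counterparts. The cause of these shifts was not tested. Signs turned for uncalled genes, among them GH_D05G3879, GH_A04G0349 and GH_A10G2162, at -0.29, -0.31 and -0.34 over all libraries. Median-of-ratios scaling gave -0.0441 for GH_A07G1559, -0.0200 for GH_A13G2239, -0.0104 for GH_D05G3880, -0.0717 for GH_A10G0627, -0.0353 for GH_D10G0668, -0.00467 for GH_D05G3553, -0.0398 for GH_D05G4096 and -0.0175 for GH_A06G0754. Upper quartile scaling gave -0.0169 for GH_A07G1559, -0.0441 for GH_A10G0627, -0.00766 for GH_D10G0668 and -0.0176 for GH_D05G4096, and a pseudocount of 0.1 gave 0.000790 for GH_A07G1558. Without single libraries the log2 difference ran from -0.133 to 0.129 for GH_A07G1558, -0.0881 to 0.192 for GH_A07G1559, -0.126 to 0.176 for GH_A13G2239, -0.532 to 0.0141 for GH_D05G3879, -0.0655 to 0.154 for GH_D05G3880, -0.685 to 0.0192 for GH_A04G0349, -0.0113 to 0.0439 for GH_A10G0627, -0.0365 to 0.00937 for GH_A05G1349, -0.0196 to 0.150 for GH_D05G3553, -0.0767 to 0.154 for GH_D05G4096, and -0.707 to 0.0132 for GH_A10G2162. With read counts not analysed here, 0 FPKM gives no limit on the true level.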
